A study of Homo sapiens with 2 samples.

Results

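The genes described are 10 antioxidant and carbonyl-detoxifying genes, many of them textbook targets of the transcription factor NRF2: GCLC, GCLM, GSR, TXN, TXNRD1, SRXN1, NQO1, HMOX1, PIR and GLO1. They were found by symbol in a deposited expression table of 50229 symbols, and each of the 10 had a single row. GLO1 and PIR were selected on their high values in the siVCP-labelled library, and the list as a whole was drawn up with the comparison of both libraries known. The differences between the libraries are therefore given as a description, with no test. All 10 passed the filter of an FPKM (fragments per kilobase of transcript, scaled to the size of the library) of at least 1 in at least 1 library, as did 11645 symbols in all.

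Poly(A) RNA came from ARP1, a human line of multiple myeloma, the malignancy of antibody-secreting plasma cells. The labels give 1 library of VCP knockdown (siVCP) and 1 control library (siNC), and no genetic change or drug shared by both was named. The comparison asks how transcripts differ when VCP, an ATPase that pulls ubiquitin-tagged proteins out of membranes and complexes, is knocked down. With 1 library per group there is no replicate error, and brackets hold 95% intervals that cover counting error only.

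NRF2 is normally held by KEAP1, an adaptor that passes it to a ubiquitin ligase for destruction. Oxidants and electrophiles modify KEAP1, and NRF2 then pairs with a small MAF protein on antioxidant response elements in its target genes. The targets serve a pair of parallel reducing systems, glutathione and thioredoxin, along with enzymes that clear quinones, heme and reactive carbonyls. Plasma cells fold large amounts of disulfide-bonded antibody, a process that generates hydrogen peroxide. Because RNA was measured in bulk, a difference in the number of cells and one in RNA per cell cannot be told apart.

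The library totals were 68872657 counts for the siVCP-labelled library and 72566092 for the siNC-labelled library. VCP went against its label, at 65.9 FPKM in the siVCP-labelled library and 47.7 FPKM in the siNC-labelled library, a 1.38-fold higher level [1.33 to 1.43]. A loss of VCP was therefore not seen, and directions go by label alone. Plasma cell genes were expressed in both libraries, all 7 of those listed passing the filter. SDC1, IRF4, XBP1, TNFRSF17 and MZB1 had log2 ratios between -0.01 and 0.20 (siVCP-labelled over siNC-labelled). PRDM1 was lower, at 46.6 and 69.8 FPKM in the siVCP- and siNC-labelled libraries, as was JCHAIN, at 485 and 712 FPKM. Of 23 markers of T cells, myeloid, stromal, erythroid and fat cells, 10 had no count in either library, all those of fat cells among them, and the highest of the rest reached 2.51 FPKM.

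In the siVCP-labelled library, GLO1 and PIR were the members furthest above the siNC-labelled library. NQO1, SRXN1, TXN, GSR and TXNRD1 were modestly higher, whereas GCLM and HMOX1 were at nearly the same level in both libraries. The log2 ratio, log2((FPKM labelled siVCP + 1)/(FPKM labelled siNC + 1)), was above 0 for 8 of the 10, against 47.2% of all measured genes. On that scale 2 members were at least 1.5-fold higher and 0 at least 1.5-fold lower, where 4.53% of measured genes were higher and 5.87% lower. By plain FPKM ratio 3 members (GLO1, PIR and NQO1) were at least 1.5-fold higher and 0 lower, where the shares of all measured genes were 6.89% and 12.3%. Since the choice of members used these same values, nothing is read from these counts. The median log2 ratio of the 10 was 0.45, and that of all measured genes was -0.02.

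**Figure D1:**
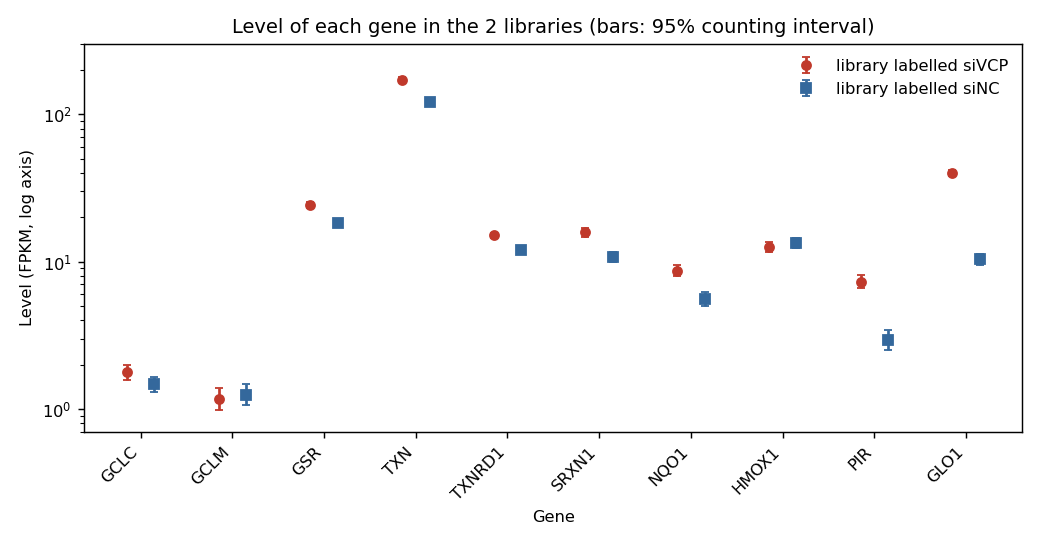
FPKM of each of the 10 genes (log axis) in the siVCP-labelled library (red circles, left of each pair) and the siNC-labelled library (blue squares), with 95% counting intervals as bars. GLO1 stands at 39.7 FPKM in the siVCP-labelled library against 10.4 FPKM in the siNC-labelled library, while GCLM and HMOX1 have overlapping intervals.

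Glutathione is made in 2 steps, the first of which is catalysed by glutamate-cysteine ligase. Its catalytic subunit GCLC (ENSG00000001084; chromosome 6, 53497341 to 53616970, minus strand) had 1.77 FPKM in the siVCP-labelled library and 1.47 FPKM in the siNC-labelled library. That was 1.21-fold higher, and the interval [1.02 to 1.42] nearly reached 1. The modifier subunit GCLM (ENSG00000023909; chromosome 1, 93885199 to 93909456, minus strand), which raises the enzyme's affinity for its substrate, had 1.17 FPKM in the siVCP-labelled library and 1.25 FPKM in the siNC-labelled library. Its ratio of 0.940 had an interval of 0.738 to 1.20, so that no difference was detectable at this depth. The catalytic transcript was 1.51 times as abundant as the modifier transcript in the siVCP-labelled library and 1.18 times in the siNC-labelled library. These were the lowest of the 10 genes in both libraries, with GCLC above 21.2% and GCLM above 10.4% of measured genes in the siVCP-labelled library, and above 13.1% and 8.79% in the siNC-labelled library.

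Glutathione reductase, encoded by GSR (ENSG00000104687; chromosome 8, 30678066 to 30727846, minus strand), returns oxidised glutathione to its reduced form with NADPH. GSR had 24.4 FPKM in the siVCP-labelled library and 18.2 FPKM in the siNC-labelled library, a 1.34-fold higher level [1.25 to 1.43]. Per length it was thus far more abundant than either ligase subunit, above 85.3% of measured genes in the siVCP-labelled library and 81.5% in the siNC-labelled library.

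The thioredoxin system was the most abundant part of the group. Thioredoxin itself, encoded by TXN (ENSG00000136810; chromosome 9, 110243810 to 110256507, minus strand), reduces disulfides in many proteins. TXN had 172 FPKM in the siVCP-labelled library and 122 FPKM in the siNC-labelled library, a 1.41-fold higher level [1.34 to 1.49]. Its gain of 50.5 FPKM was the largest absolute difference among the 10, although 4 members had a larger fold. TXN had 14352 counts in the siVCP-labelled library and 10702 in the siNC-labelled library, and rows named as pseudogenes of any of the 10 genes held at most 21.

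Thioredoxin reductase 1, the selenoenzyme encoded by TXNRD1 (ENSG00000198431; chromosome 12, 104215779 to 104350307, plus strand), recharges thioredoxin with electrons from NADPH. TXNRD1 had 15.1 FPKM in the siVCP-labelled library and 11.9 FPKM in the siNC-labelled library, a 1.26-fold higher level [1.19 to 1.35]. Within its bounds and on the same strand lies the pseudogene row RPL18AP3, with 13374 counts in the siVCP-labelled library and 14240 in the siNC-labelled library. Those exceed the 8350 and 6966 counts of TXNRD1 in the siVCP- and siNC-labelled libraries, so its level is uncertain if reads were shared between the rows. Thioredoxin exceeded its reductase 11.4 times in the siVCP-labelled library and 10.2 times in the siNC-labelled library.

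SRXN1 (ENSG00000271303; chromosome 20, 646615 to 653200, minus strand) encodes sulfiredoxin, which repairs overoxidised peroxiredoxins. It had 15.9 FPKM in the siVCP-labelled library and 10.7 FPKM in the siNC-labelled library, a 1.48-fold higher level [1.33 to 1.64]. TXN, TXNRD1 and SRXN1 therefore had log2 ratios of 0.50, 0.31 and 0.52.

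NQO1 and HMOX1, a pair of widely used NRF2 readouts, differed from each other. NQO1 (ENSG00000181019; chromosome 16, 69706996 to 69726668, minus strand) encodes a quinone reductase. NQO1 had 8.65 FPKM in the siVCP-labelled library and 5.59 FPKM in the siNC-labelled library, a 1.55-fold higher level [1.35 to 1.77]. HMOX1 (ENSG00000100292; chromosome 22, 35380361 to 35390293, plus strand) encodes the inducible heme oxygenase, which opens heme and frees its iron. HMOX1 had 12.6 FPKM in the siVCP-labelled library and 13.4 FPKM in the siNC-labelled library. Its ratio of 0.938 had an interval of 0.839 to 1.05, which holds 1. The intervals of the NQO1 and HMOX1 ratios did not overlap.

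PIR and GLO1 had the largest folds, which is why they were included. PIR (ENSG00000087842; chromosome X, 15384799 to 15493333, minus strand) encodes pirin, an iron-binding nuclear protein with quercetinase activity. PIR had 7.33 FPKM in the siVCP-labelled library and 2.96 FPKM in the siNC-labelled library, a 2.48-fold higher level [2.05 to 2.99]. GLO1 (ENSG00000124767; chromosome 6, 38675925 to 38703145, minus strand) encodes glyoxalase I, which converts the adduct of glutathione and methylglyoxal, a by-product of glycolysis. GLO1 had 39.7 FPKM in the siVCP-labelled library and 10.4 FPKM in the siNC-labelled library, a 3.83-fold higher level [3.48 to 4.23]. By log2 ratio GLO1 ranked 19 and PIR 102 among the 11645 measured genes. Neither gene overlapped a row that held a count. The 3 nearest measured genes on each side had log2 ratios of -0.23 to 0.22 around GLO1 and of -0.36 to 0.22 around PIR. These genes were distant, at 521301 to 2330482 bases from GLO1 and 181599 to 1354906 bases from PIR. VEGFD, which lies 386 bases past the end of PIR on the same strand, had 38 counts in the siVCP-labelled library and 0 in the siNC-labelled library, where a count of 0 allows up to 12.

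**Figure D2:**
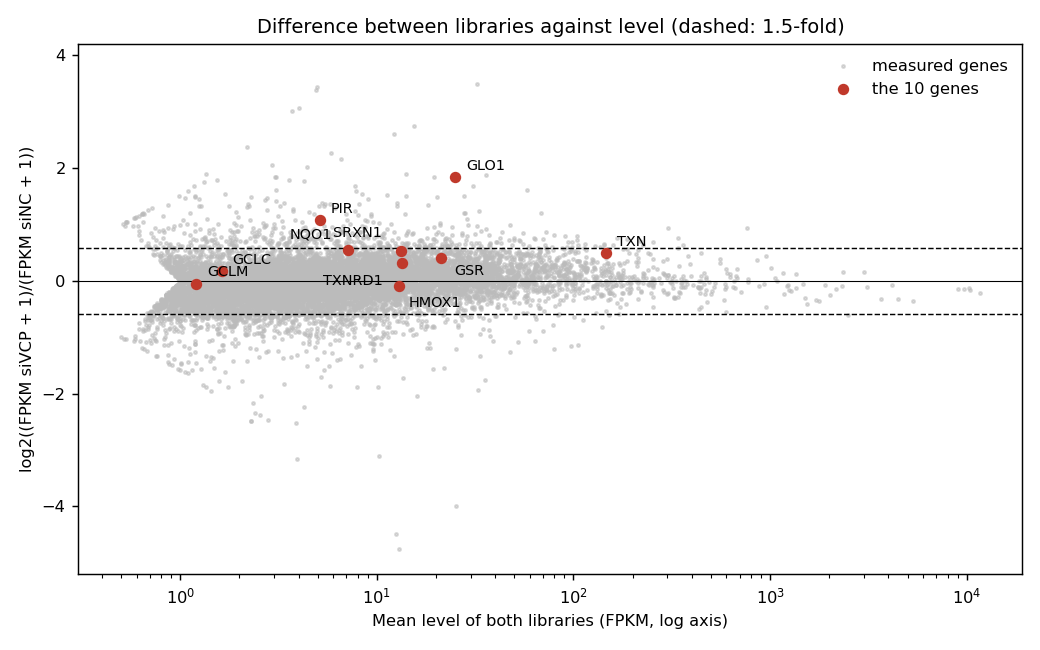
Log2 ratio of the siVCP-labelled library over the siNC-labelled library (vertical axis) against the mean FPKM of both libraries (log axis) for 11645 measured genes (grey), with the 10 genes in red and dashed lines at 1.5-fold. GLO1 and PIR lie above the upper line at log2 ratios of 1.84 and 1.07, and the other members lie between the lines.

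GLO1 and PIR, the 2 genes with the largest folds, share a short sequence near their starts, and so the GLO1 promoter and the site in each gene are shown. RefSeq promoters (GRCh38.p14, 250 bases before to 50 after each start) were used for 8 of the 10 genes, with 2 starts for TXNRD1. None was used for GSR and HMOX1, so no site is given for these genes. Shown first are the 250 bases upstream of GLO1, at chr6:38703146-38703395 on the minus strand, with the match in capitals:

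GLO1 promoter: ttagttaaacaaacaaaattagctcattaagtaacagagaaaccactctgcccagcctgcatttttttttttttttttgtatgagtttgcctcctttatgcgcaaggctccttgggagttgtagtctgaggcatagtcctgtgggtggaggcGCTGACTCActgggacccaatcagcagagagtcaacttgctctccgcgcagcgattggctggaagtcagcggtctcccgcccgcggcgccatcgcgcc

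Read on the opposite strand, that match is TGAGTCAGC, and PIR holds TGACTCAGC. Both fit TGANTCAGC, an AP-1-type core (TGANTCA) with the GC flank that small MAF proteins are known to read. In GLO1 the motif ends 90 bases before the start, and in PIR it lies 27 to 35 bases into the transcript. Windows of 30 bases are all read on the strand where the motif runs 5′ to 3′, with the motif in capitals. They are these for GLO1 (chr6:38703224-38703253, plus strand) and PIR (chrX:15493288-15493317, plus strand):

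GLO1: ttgggtcccagTGAGTCAGCgcctccaccc

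PIR: tagcctcaccgTGACTCAGCgcttcgcggc

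The core of the antioxidant response element, TGACNNNGC, was searched on both strands as well. It was present in PIR, where it overlaps the match above, in GCLM (chr1:93909445-93909474, plus strand) and at both starts of TXNRD1 (chr12:104215670-104215699, plus strand, and chr12:104286920-104286949, minus strand). The first start of TXNRD1 holds a further match, at -8 to 1 from the start, which is not shown. The windows below show the other sites with the core in capitals:

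GCLM: ctggaagacaaTGACTAAGCagaaatcgta

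TXNRD1, first start: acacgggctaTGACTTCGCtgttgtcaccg

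TXNRD1, second start: cagagtcagaaTGACAAAGCagaaatccac

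TGACNNNGC occurred in 13.3% of 35116 promoters of the same length, TGANTCA in 7.71% and TGANTCAGC in 1.36%. Measured genes with TGANTCAGC numbered 106, GLO1 and PIR included, and their median log2 ratio was -0.01, equal after rounding to that of the 8029 measured genes without it. At least 1.5-fold higher on the log2 scale were 6.60% of those with it, again with GLO1 and PIR included, and 3.64% of those without. GLO1 and PIR were chosen for their high values, which raises the first share. Nothing is therefore read from this difference, and it was not tested. The members with TGACNNNGC were GCLM, TXNRD1 and PIR, with log2 ratios of -0.05, 0.31 and 1.07. PIR was chosen for its high value, so nothing is read from their spread. A match describes these letters and is not a shown binding site. The motifs were chosen after the promoters had been seen.

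By level, TXN was highest of the 10 in both libraries, and the middle of the order differed between them. In the siVCP-labelled library, TXN was followed by GLO1, GSR, SRXN1, TXNRD1, HMOX1, NQO1, PIR, GCLC and GCLM. The counting intervals of the neighbours SRXN1 and TXNRD1 overlapped there, as did those of NQO1 and PIR. In the siNC-labelled library the order was TXN, GSR, HMOX1, TXNRD1, SRXN1, GLO1, NQO1, PIR, GCLC and GCLM. HMOX1, TXNRD1, SRXN1 and GLO1 each overlapped their neighbour in that order, and GCLC overlapped GCLM. GLO1 thus stood at place 2 in the siVCP-labelled library and place 6 in the siNC-labelled library, and HMOX1 at places 6 and 3. Summed over the 10 genes, the level was 299 FPKM in the siVCP-labelled library and 198 FPKM in the siNC-labelled library. TXN was higher by 50.5 FPKM and GLO1, chosen for its high value, by 29.4 FPKM, while 2 of the 10 (GCLM and HMOX1) were lower. The sum thus mainly follows TXN and GLO1.

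Ratios also followed transcript properties, which is given beside the members. With measured genes cut into 5 equal bins by transcript length, the bin medians ran between 0.08 for the shortest and -0.16 for the longest. Cut likewise by GC content, they ran between -0.19 at the lowest and 0.07 at the highest content. Against the median of genes of similar length and GC content, GLO1 was 1.91 higher on the log2 scale, PIR 0.99, NQO1 0.60, TXN 0.47, TXNRD1 0.42, SRXN1 0.36 and GSR 0.35. GCLC was 0.22 and GCLM 0.13 higher than such genes, the sign of GCLM being turned, and HMOX1 had -0.19. The part of length and GC content in these ratios was not tested. The median of the 10 was 0.39 on this scale, with 9 above 0, where the median of all genes with a transcript is 0 by construction. Since the choice of members used these same data, nothing is read from this count.

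**Figure D3:**
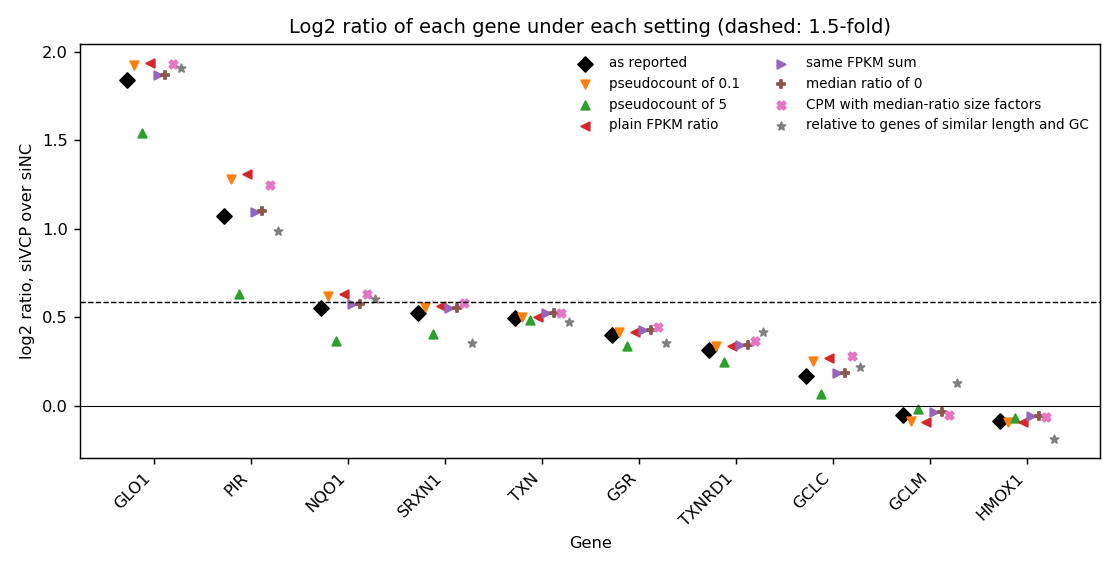
Log2 ratio of the siVCP-labelled library over the siNC-labelled library for each of the 10 genes as reported (black diamonds) and under 7 other settings, with a dashed line at 1.5-fold. GLO1 and PIR stay above the line in each setting shown, NQO1 lies on either side of it, and GCLM lies on either side of 0.

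The regulators of the pathway did not differ in 1 direction. NFE2L2, which encodes NRF2, had 3.39 FPKM in the siVCP-labelled library and 4.09 FPKM in the siNC-labelled library, a ratio of 0.829 [0.724 to 0.947]. KEAP1 had 36.9 FPKM in the siVCP-labelled library and 32.8 FPKM in the siNC-labelled library. CUL3, the ligase scaffold that KEAP1 serves, had a log2 ratio of -0.14, and BACH1, a repressor that competes for the same elements, had -0.02. Among the small MAF partners, MAFK had 8.12 FPKM in the siVCP-labelled library and 2.61 FPKM in the siNC-labelled library, a 3.11-fold higher level [2.69 to 3.59]. MAFG was level at 14.3 and 14.2 FPKM in the siVCP- and siNC-labelled libraries, and MAFF was lower, at 2.49 and 3.82 FPKM in those libraries. NFE2L1, which encodes the related factor NRF1, was 1.61-fold higher [1.54 to 1.68]. SQSTM1, whose product p62 binds KEAP1, had a log2 ratio of 0.58. GSK3B, a kinase that marks NRF2 for destruction, had -0.34, and BACH2, a relative of BACH1, had -0.41. Of 18 regulators, 2 were at least 1.5-fold higher and 0 lower on the log2 scale, with a median of -0.01. The shares of all measured genes were 4.53% and 5.87%. By plain FPKM ratio 3 were higher, SQSTM1 being added, and 1 (MAFF) was lower, beside 6.89% and 12.3% of all measured genes.

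Genes around glutathione spread widely. Of 12 measured genes for its synthesis, breakdown and precursors, 3 were at least 1.5-fold higher and 2 lower, on the log2 scale and by plain FPKM ratio. The shares of all measured genes were 4.53% and 5.87% on the log2 scale, and 6.89% and 12.3% by plain ratio. CHAC1 and CHAC2, which cleave glutathione in the cytosol, were 2.19-fold [1.81 to 2.65] and 1.77-fold [1.34 to 2.36] higher. GGT1, which cleaves it at the cell surface, was 3.55-fold higher, with 1829 counts in the siVCP-labelled library and 548 in the siNC-labelled library. The clone-named locus AP000356, which overlaps GGT1 on the same strand, had 83 and 2256 counts in the siVCP- and siNC-labelled libraries. The GGT1 ratio is uncertain, since reads may have been divided differently between both rows. GSS, the second enzyme of glutathione synthesis, was 1.25-fold higher [1.14 to 1.37]. SLC3A2, the heavy chain of the cystine importer, was 1.43-fold higher, while its partner SLC7A11 was below the filter at 0.952 and 0.804 FPKM in the siVCP- and siNC-labelled libraries (both named after their values were seen). On the lower side stood SLC1A4, a neutral amino acid transporter, at 17.9 and 35.8 FPKM in the siVCP- and siNC-labelled libraries. GGCT, which handles gamma-glutamyl dipeptides, had 10.3 and 17.8 FPKM in the same libraries. Glutathione peroxidases, glutaredoxins and transferases had a median log2 ratio of 0.00 over 16 measured genes. None of them passed 1.5-fold, with GLRX5 (0.47) and GLRX (0.43) highest, and GSTK1 (-0.30) and MGST1 (-0.14) lowest.

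Among 26 measured thioredoxin-related genes the median log2 ratio was 0.17, with 0 at least 1.5-fold higher and 1 lower on the log2 scale. The shares of all measured genes were 4.53% and 5.87%. PRDX1, a cytosolic peroxiredoxin that thioredoxin recharges, had 225 FPKM in the siVCP-labelled library and 160 FPKM in the siNC-labelled library. Its 1.41-fold difference [1.36 to 1.46] was of the size seen for TXN and SRXN1. MSRB1, a selenoprotein that repairs oxidised methionine, was 1.45-fold higher. The mitochondrial TXN2 had a log2 ratio of 0.04 and its reductase TXNRD2 one of 0.43, and TXNRD3 had no count in either library. TXNIP, which binds and inhibits thioredoxin, had 44.3 FPKM in the siVCP-labelled library and 66.3 FPKM in the siNC-labelled library. TXN was therefore 3.88 times TXNIP in the siVCP-labelled library and 1.84 times in the siNC-labelled library. SESN3, a sestrin, was the gene at least 1.5-fold lower on the log2 scale, at -0.63, and NXN, which encodes nucleoredoxin, had -0.52. By plain FPKM ratio 3 genes passed that threshold, NXN at 1.76-fold lower, SESN3 at 1.71-fold and SESN1, named after its values were seen, at 1.54-fold. Among all measured genes 12.3% were lower by that measure.

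**Figure D4:**
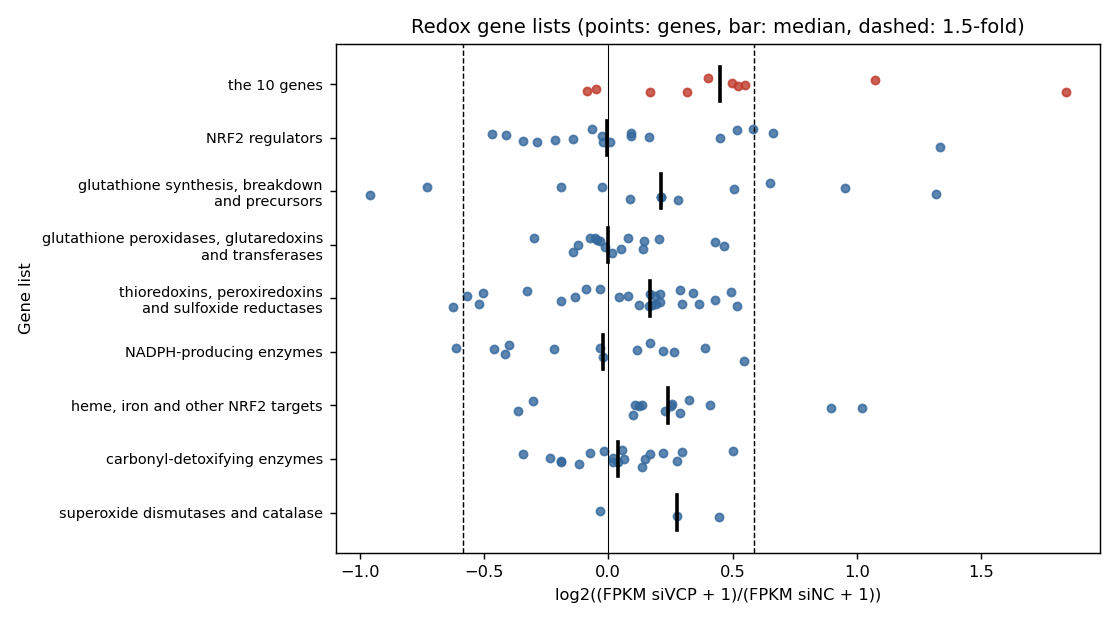
Log2 ratio of the siVCP-labelled library over the siNC-labelled library for each measured gene (points) of the 10 genes (red) and of 8 other redox lists (blue), with the list median as a black bar and dashed lines at 1.5-fold. List medians lie between -0.02 for the list named NADPH-producing enzymes, which also holds other related genes, and 0.45 for the 10 genes. Single genes reach 1.34 (MAFK) and -0.96 (SLC1A4) outside the 10.

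The list around the supply of NADPH, the reductant of both systems, had a median log2 ratio of -0.02 over 13 genes. It also held genes whose products make no NADPH themselves, TALDO1, NADK and NADK2 among them. The cytosolic isocitrate dehydrogenase gene IDH1 had 8.70 FPKM in the siVCP-labelled library and 5.66 FPKM in the siNC-labelled library (log2 ratio 0.54). Its mitochondrial counterpart IDH2 was on the other side, at 50.1 and 77.3 FPKM in the siVCP- and siNC-labelled libraries (log2 ratio -0.61). TALDO1, which encodes transaldolase of the pentose phosphate pathway, was 1.31-fold higher. NADK2 (-0.46) and MTHFD2 (-0.42), both mitochondrial, were the next lowest.

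Heme, iron and other NRF2-linked genes had a median log2 ratio of 0.24 over 14 genes. On the log2 scale 2 were at least 1.5-fold higher and 0 lower, beside 4.53% and 5.87% of all measured genes. AIFM2, whose product FSP1 regenerates reduced ubiquinone against lipid peroxidation, had 14.1 FPKM in the siVCP-labelled library and 6.45 FPKM in the siNC-labelled library, a 2.19-fold higher level. NQO2, the paralogue of NQO1, was 2.07-fold higher [1.83 to 2.33]. NQO1 was 0.993 times NQO2 in the siVCP-labelled library and 1.33 times in the siNC-labelled library. The heme transporter gene SLC48A1 had a log2 ratio of 0.41. HMOX2, the constitutive heme oxygenase, had 23.4 and 21.7 FPKM in the siVCP- and siNC-labelled libraries. BLVRA and BLVRB, which reduce the bile pigments formed after heme cleavage, had log2 ratios of 0.26 and 0.23. TRIM16 and ABHD4 were lowest, at -0.36 and -0.30.

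Other carbonyl-detoxifying enzymes are given beside GLO1. Since GLO1 was chosen for its high value, nothing is read from its distance to them. None of 19 measured genes passed 1.5-fold in either direction, and their median log2 ratio was 0.04. On the log2 scale 4.53% of all measured genes were higher and 5.87% lower, so none of 19 is no result about this list. HAGH, which encodes glyoxalase II and completes the pathway that GLO1 starts, had 5.52 FPKM in the siVCP-labelled library and 6.43 FPKM in the siNC-labelled library, a ratio of 0.858 [0.774 to 0.952]. GLO1 was thus 7.20 times HAGH in the siVCP-labelled library and 1.61 times in the siNC-labelled library. CBR1, a carbonyl reductase, was highest at 1.42-fold, followed by ADH5 and PARK7 with log2 ratios of 0.30 and 0.28. CBR4 (-0.34), CBR3 (-0.24) and HAGH (-0.19) were lowest. CBR3 had only 122 and 167 counts in the siVCP- and siNC-labelled libraries, and the interval of its ratio, 0.771 [0.456 to 1.23], holds 1. Of the enzymes that remove superoxide and peroxide directly, SOD1 had a log2 ratio of 0.44, its copper chaperone CCS 0.28 and catalase (CAT) -0.03.

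Over the 8 other lists together 121 genes were measured. Of these, 7 (5.79%) were at least 1.5-fold higher and 4 (3.31%) lower on the log2 scale, beside 4.53% and 5.87% of all measured genes, and the median was 0.09. By plain FPKM ratio 9 were higher and 7 lower, beside 6.89% and 12.3% of all measured genes.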

How the data were processed

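ARP1 RNA was sequenced as paired ends after poly(A) selection, per the labels' protocols, in 1 library labelled siVCP and 1 labelled siNC. HISAT2 2.0 and StringTie 1.3.0 are listed in the submitters' processing notes without their roles, and neither genome build nor strandedness is given in the sources used here. GENCODE 29 holds 58394 of the deposited identifiers, 90.6% with an equal start or end (8 of the 10 members), so coordinates are given as GRCh38.

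FPKM values were normalized by the authors; rows with a count of 0 were set to 0, and rows sharing a symbol were summed. The deposited counts are whole numbers that pile up at 4 (1205 rows, against 417 at 3 and 244 at 5, in the siVCP-labelled library). From this, 1 fragment was inferred to add 4 counts. Intervals of ratios (exact conditional binomial) and of levels (exact Poisson) therefore used counts divided by 4. They cover counting error only, as PCR copies could not be told from separate molecules. The log2 ratio used a pseudocount of 1, which understates differences of low genes; folds are plain FPKM ratios. No test was run, because each group has 1 library.

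The members, lists, thresholds and settings were chosen with earlier results of these data known. Named genes were the 10 members, main NRF2 regulators, direct partners or homologues of a member, and up to 3 highest and 3 lowest genes per list. Length and GC content came from each gene's longest coding transcript in the basic GENCODE set, found for 81.5% of measured genes and all 10 members. A listed gene is not reported here. Ratio and interval steps were tested on simulated data. Versions were 2.4.6 of numpy and 2.3.3 of pandas, with scipy at 1.17.1, matplotlib at 3.10.9 and Python at 3.11.15.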

Additional observations from a re-analysis of the deposited data

How the results depend on the processing

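No paired analysis was possible because the design has 1 siVCP and 1 siNC library. Leaving out a library was likewise not run. The settings relative to genes of similar length and GC content and without same-strand overlaps were chosen after seeing the data. The member median (0.45) ranged from 0.35 to 0.51, and the members at least 1.5-fold higher numbered 2 or 3. GLO1 ranged from 1.54 to 1.94, PIR from 0.63 to 1.31 and NQO1 from 0.37 to 0.63, each lowest with a pseudocount of 5. Of the member values recomputed, 75 stayed within the counting interval as carried onto the log2(FPKM + 1) scale and 5 left it, SRXN1 (0.36) and TXNRD1 (0.42) relative to length and GC content among them. Of medians 95 stayed and 4 moved, and of counts 204 stayed and 34 moved. GCLM was above 0 relative to length and GC content only. All measured genes at least 1.5-fold higher and lower numbered 528 and 684. A pseudocount of 5 gave 163 and 141, with more genes higher than lower. They were 328 and 288 with an FPKM of at least 5, 802 and 1432 by plain ratio, 298 and 336 relative to length and GC content, 122 and 153 at 2-fold, and 1351 lower with a pseudocount of 0.1. The median of NRF2 regulators was 0.16 with an FPKM of at least 5. That of glutathione synthesis and breakdown was 0.10 without a filter and 0.098 relative to length and GC content, and that of superoxide dismutases and catalase 0.069 without a filter. List counts moved by 1 or 2 genes. At 2-fold, 1 was higher among NRF2 regulators, glutathione synthesis and heme genes, and 0 lower among glutathione synthesis, thioredoxin-related and NADPH genes. With a pseudocount of 0.1 or by plain ratio, 1 NADPH gene was higher, and 1 regulator and 3 thioredoxin-related genes lower. With CPM, 1 NADPH gene was higher and 2 thioredoxin-related genes lower. With a pseudocount of 5, 1 heme gene was higher, 1 glutathione synthesis gene lower, and 0 NADPH and 0 thioredoxin-related genes lower. Relative to length and GC content, 1 regulator and 1 thioredoxin-related gene were higher and 0 of the last lower. Without same-strand overlaps, 1 glutathione synthesis gene was lower and 1 heme gene higher. Fewer genes enter with stricter thresholds and without overlaps, and the cause of the other moves was not tested.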

Other observations

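Several genes of the same pathways were below 1 FPKM in both libraries. GPX1, the classical cytosolic glutathione peroxidase, was listed at 0.0732 FPKM in the siVCP-labelled library and 0.248 FPKM in the siNC-labelled library, whereas GPX4, which protects lipids, had 69.3 and 65.5 FPKM. GSTP1, a common glutathione transferase, had 0.485 and 0.630 FPKM, and SOD2, the mitochondrial superoxide dismutase, 0.906 and 0.818 FPKM, in the siVCP- and siNC-labelled libraries. The NRF2 target OSGIN1 had 0.779 and 0.723 FPKM. Counts behind these low levels differed widely. GPX1 had 8 and 26 counts in the siVCP- and siNC-labelled libraries, and SOD2 had 1362 and 1296, more than GCLC with 1265 and 1108. The genes of this paragraph were named after their values were seen.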
